A study of Mus musculus with 18 samples.

Results

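The 10 genes described here are the pair of brain corticosteroid receptors, the glucocorticoid receptor Nr3c1 and the mineralocorticoid receptor Nr3c2, with 8 genes known as targets of the activated glucocorticoid receptor: Fkbp5, Tsc22d3, Sgk1, Klf9, Cdkn1a, Ddit4, Zbtb16 and Hif3a. They were chosen by name, with earlier results of these data known. Each matched 1 row of the 36172 genes in the expression matrix, and all 10 were among the 14803 genes that passed the low-count filter. RNA was measured by sequencing in half-brains of Cx3cr1-cre/ERT2+; NuTRAP+ mice that had received tamoxifen at about 3 months of age and then, 3 to 4 weeks later, a single intraperitoneal injection of bacterial lipopolysaccharide (LPS, 5 mg/kg) or of phosphate-buffered saline (PBS), with tissue taken after 24 hours. In this line a tamoxifen-inducible Cre under the Cx3cr1 promoter switches on a GFP-tagged ribosomal protein in microglia and in other Cx3cr1-expressing macrophages, and every animal, control or LPS, carried both transgenes and received tamoxifen. Translating ribosome affinity purification (TRAP) of each homogenate gave a positive fraction, the RNA bound to the tagged ribosomes, and an input, the RNA of the whole homogenate. The groups were the PBS input (n = 4), the LPS input (n = 4), the PBS positive fraction (n = 4) and the LPS positive fraction (n = 5), from 9 animals.

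The PBS animals were numbered 268, 272, 273 and 506, the LPS animals 266, 267, 270, 271 and 507, and the values of each group are given below in that order. Animals 267, 272 and 273 were male and the other 6 female. The input library of animal 271 held 1252 counts in all and was left out, while the other 17 libraries held between 22968939 and 35123345. Values are normalised counts, that is, estimated read counts divided by a size factor for each library, and they compare libraries for 1 gene, not genes with each other. Summed over 10 microglial markers, normalised counts ran from 12200 to 15900 in PBS input and from 235000 to 280000 in the PBS positive fraction, and all 10 markers were higher in the positive fraction. Summed neuronal markers ran from 201000 to 210000 in PBS input and from 211000 to 242000 in the PBS positive fraction, so a level in the positive fraction was not that of microglia alone. In these bulk libraries, fewer cells of a type and less RNA per cell cannot be told apart.

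The glucocorticoid receptor is a ligand-activated transcription factor. Without hormone it is held in the cytoplasm by Hsp90 and its co-chaperones. When bound by corticosterone, the main glucocorticoid of the mouse, it enters the nucleus and binds glucocorticoid response elements, inverted repeats of a short half-site. Microglia carry the receptor, and systemic LPS is a classical activator of the hypothalamic-pituitary-adrenal axis that releases corticosterone. Corticosterone was not among the values analysed here. Several of the targets also answer to other signals: Cdkn1a is a classical target of p53, and Ddit4 is induced by hypoxia and cellular stress.

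The half-site AGAACA and the palindrome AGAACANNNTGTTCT, the half-site and its reverse complement spaced by 3 bases, were searched on both strands of RefSeq promoter windows that run from 250 bases before to 50 bases after a start site (build GRCm38.p6, the same assembly as mm10). Windows were found for 8 of the 10 genes, 16 windows in all, and Nr3c1 and Zbtb16 had no entry. The half-site occurred in 19% of all 32851 windows, so a single match says little, whereas the palindrome, each match of which also contains the half-site on both strands, occurred in 3 windows (0.00913%). One of those 3 belonged to Sgk1. The 250 bases before 3 start sites are shown because they span the range of matches: the Sgk1 window with the palindrome, the Tsc22d3 window with 1 half-site, and the Fkbp5 window with neither, although Fkbp5 had the second largest fold change after LPS of the 10 genes, in both fractions. In the Sgk1 window the palindrome is in capitals and 1 further half-site is left in lower case, and in the Tsc22d3 window the half-site is in capitals, as TGTTCT, its form on the other strand. The Sgk1 window lies inside the span of its gene, before an internal start site, and the other pair lie directly upstream of theirs.
Sgk1, chr10:21993640-21993889, plus strand, palindrome at -189 from the start site: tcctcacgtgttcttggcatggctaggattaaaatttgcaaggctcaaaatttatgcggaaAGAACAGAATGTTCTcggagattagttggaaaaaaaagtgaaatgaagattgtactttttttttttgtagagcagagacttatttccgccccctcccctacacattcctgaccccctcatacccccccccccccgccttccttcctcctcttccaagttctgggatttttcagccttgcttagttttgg
Tsc22d3, chrX:140600523-140600772, minus strand, half-site at -185: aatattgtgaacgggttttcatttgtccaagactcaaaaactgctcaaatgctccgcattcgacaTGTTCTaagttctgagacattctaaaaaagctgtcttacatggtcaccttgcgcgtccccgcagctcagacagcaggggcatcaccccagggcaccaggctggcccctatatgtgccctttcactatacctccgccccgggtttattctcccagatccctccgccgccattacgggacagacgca
Fkbp5, chr17:28486150-28486399, minus strand, no match: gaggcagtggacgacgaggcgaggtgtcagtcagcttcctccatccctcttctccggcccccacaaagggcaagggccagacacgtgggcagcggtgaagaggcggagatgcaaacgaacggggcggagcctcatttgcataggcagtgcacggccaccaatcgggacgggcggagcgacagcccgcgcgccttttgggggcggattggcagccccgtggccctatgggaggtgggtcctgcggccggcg
Half-sites were found in 4 of the 16 windows, 3 of Sgk1 and 1 of Tsc22d3. No match in a window says only that these letters are not in it, since response elements can lie in introns or far from a start site.

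In the positive fraction, 5 of the 10 genes rose after LPS (Cdkn1a, Fkbp5, Hif3a, Ddit4 and Sgk1) and none of the 10 fell, where a call needed an adjusted p under 0.05 over all genes in edgeR's quasi-likelihood test and a ratio of group means that put the higher group more than 25% above the lower. Of all genes tested there, 19% were called raised and 14.9% lowered. In input, 3 of the 10 rose (Cdkn1a, Fkbp5 and Ddit4) and none fell, against 7.16% raised and 5.26% lowered of all genes. The median log2 fold change of the 10 genes was 0.60 in the positive fraction and 0.40 in input, beside 0.01 and 0 over all genes tested. Neither receptor was among those called.

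**Figure D1:**
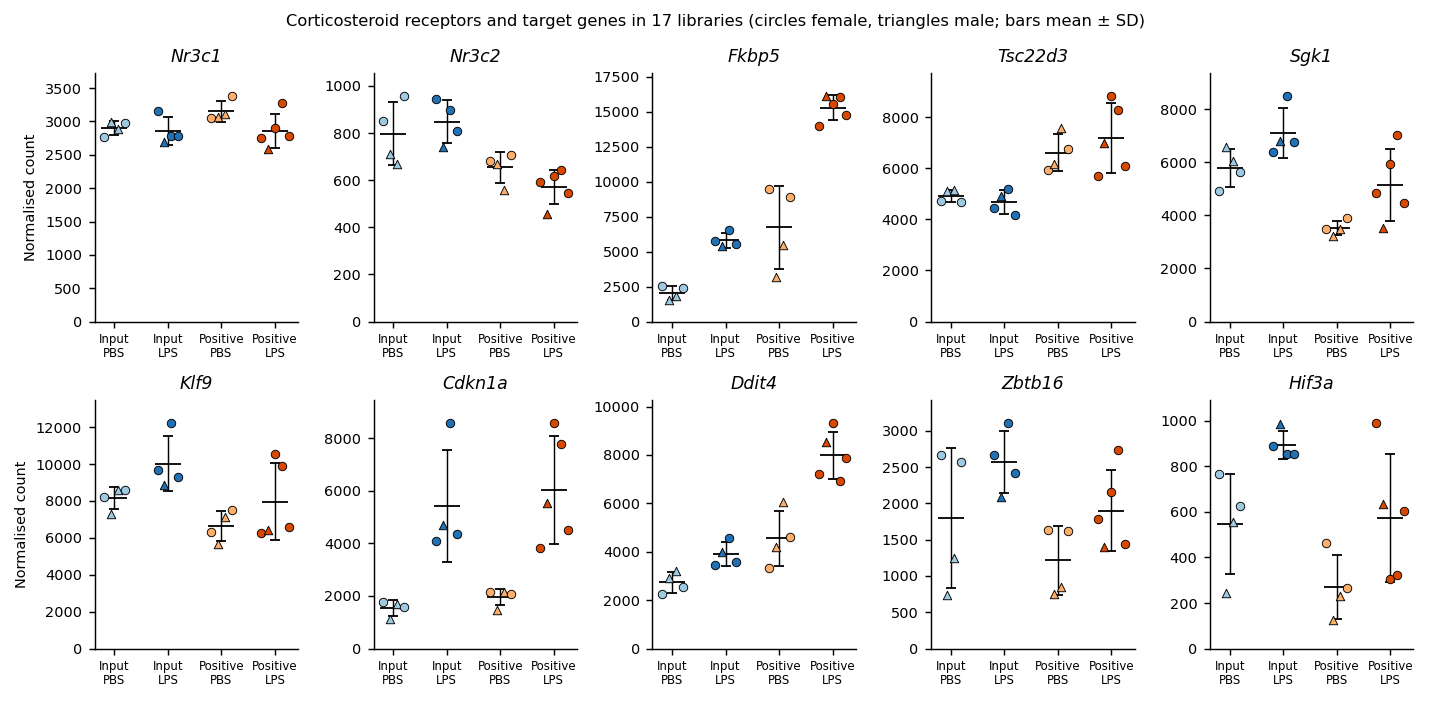
Normalised counts (linear axes from 0) of the 10 genes in the 17 libraries by fraction and treatment. Circles are female animals, triangles male, and bars the mean ± SD. Fkbp5, Cdkn1a and Ddit4 are the genes whose LPS libraries lie wholly above the PBS libraries in both fractions, and Nr3c1 stays between 2583 and 3385 throughout.

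Nr3c1, the glucocorticoid receptor, had the smallest standard errors of the set. It read 2760, 2993, 2893 and 2970 normalised counts in PBS input and 3164, 2698, 2787 and 2778 in LPS input. In the positive fraction it read 3046, 3073, 3118 and 3385 after PBS and 2752, 2583, 2905, 3274 and 2786 after LPS. The treatment groups overlapped in both fractions. The log2 fold change for the positive fraction was -0.14 (SE 0.07, 95% interval -0.3 to 0.01, adjusted p = 0.125), that for input -0.02 (SE 0.08, interval -0.19 to 0.14, adjusted p = 0.873), so the intervals left room for a fall of at most 0.3 on the log2 scale.

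Nr3c2 (mm10 chr8:76902508-77243639, plus strand) binds corticosterone with higher affinity than the glucocorticoid receptor and is known in the brain mainly from hippocampal neurons. It read 851.6, 711.9, 667.7 and 958.2 in PBS input against 946.3, 739.5, 898.9 and 809.9 in LPS input, and 682.1, 669.6, 558.8 and 708.7 in the PBS positive fraction against 591.8, 456.5, 617.7, 641.9 and 547.3 after LPS. Groups overlapped in both fractions, and neither change was called (on tagged ribosomes log2 -0.20, SE 0.12, adjusted p = 0.217; in input 0.09, SE 0.13, adjusted p = 0.702). The ratio of Nr3c1 to Nr3c2 counts within a library, which also depends on transcript length, was 4.85 ± 0.502 (SD, n = 4) in the PBS and 5.04 ± 0.404 (SD, n = 5) in the LPS positive fraction (exact two-sided permutation test over 126 arrangements, p = 0.5, adjusted p = 0.5). In input it was 3.72 ± 0.639 (SD, n = 4) after PBS and 3.38 ± 0.227 (SD, n = 4) after LPS (exact two-sided permutation test over 70 arrangements, p = 0.4, adjusted p = 0.5).

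Fkbp5 (chr17:28398753-28486149, minus strand) encodes FKBP51, an Hsp90 co-chaperone that lowers the affinity of the glucocorticoid receptor for its hormone and is induced by the receptor. It read 2575, 1511, 1796 and 2397 in PBS input and 5765, 5393, 6548 and 5543 in LPS input. On tagged ribosomes it read 9492, 3161, 5448 and 8891 after PBS and 13990, 16150, 15540, 16070 and 14800 after LPS. Every LPS library lay above every PBS library of its fraction. On tagged ribosomes it rose 2.27-fold (log2 1.18, SE 0.23, adjusted p = 0.000519), and input showed a 2.81-fold rise (log2 1.49, SE 0.24, adjusted p = 0.000324). The spread was uneven: the SD was 2980 in the PBS and 912 in the LPS positive fraction, and the low PBS values were those of the males 272 and 273.

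Tsc22d3 (chrX:140539529-140600522, minus strand), which encodes the glucocorticoid-induced leucine zipper protein GILZ, did not pass the test. It read 4727, 5102, 5132 and 4667 in PBS input against 4436, 4921, 5185 and 4174 in LPS input. On tagged ribosomes it read 5938, 6161, 7569 and 6761 after PBS and 5692, 7001, 8838, 8281 and 6097 after LPS. Animals 270 and 271 were the highest libraries, and the others lay within the PBS range or below it. Its log2 fold change was 0.12 on tagged ribosomes (SE 0.12, interval -0.13 to 0.37, adjusted p = 0.428). In input it was -0.07 (SE 0.12, interval -0.33 to 0.2, adjusted p = 0.763). Without animals 270 and 271 it was -0.07 in the positive fraction (adjusted p = 0.585).

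Sgk1 (chr10:21882184-21999902, plus strand) encodes the serum- and glucocorticoid-regulated kinase, which acts on ion channels and transporters. In the positive fraction it read 3479, 3229, 3481 and 3887 after PBS and 4825, 3510, 5922, 7042 and 4463 after LPS, so that 4 of 5 LPS libraries lay above the highest PBS library and animal 267 did not. It rose by 1.46-fold (log2 0.55, SE 0.15, adjusted p = 0.00788). Without animals 270 and 271, the 2 highest, the log2 value was 0.29 (adjusted p = 0.0482), under the 25% that a call needed. In input it read 4908, 6572, 6036 and 5616 after PBS and 6396, 6790, 8504 and 6752 after LPS, overlapping groups with a change that was not called (log2 0.30, SE 0.16, adjusted p = 0.235). Summed oligodendrocyte markers ran from 101000 to 158000 in PBS input and from 64900 to 92800 in LPS input, with 6 of 8 markers called lower. Oligodendrocytes are a known site of Sgk1 expression, and the part of this shift in the input values was not tested.

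Ddit4 (chr10:59949675-59951770, minus strand) encodes REDD1, an inhibitor of mTORC1 signalling. It read 3335, 4180, 6061 and 4625 in the PBS positive fraction and 7222, 8556, 9331, 6915 and 7871 after LPS, without overlap, a rise of 1.75-fold (log2 0.81, SE 0.15, adjusted p = 0.000284). In input it read 2257, 2920, 3203 and 2540 after PBS and 3442, 3995, 4572 and 3589 after LPS. The input groups did not overlap either, and the rise was 1.43-fold (log2 0.51, SE 0.15, adjusted p = 0.032). The input call was the least secure of the 3: it was lost when animals 506 and 507 were left out (log2 0.52, adjusted p = 0.143), without animals 270 and 271 (0.43, adjusted p = 0.0793) and without any 1 of the input libraries 268, 272, 506, 267 and 270 (adjusted p from 0.0507 to 0.11).

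Cdkn1a (chr17:29090986-29100722, plus strand), which encodes the cyclin-dependent kinase inhibitor p21, showed the largest fold change of the 10 genes in both fractions. It read 1758, 1108, 1692 and 1576 in PBS input and 4088, 4687, 8586 and 4345 in LPS input, and 2152, 1481, 2146 and 2060 in the PBS positive fraction against 3828, 5516, 8574, 7773 and 4489 after LPS. Every LPS library exceeded every PBS library of its fraction. It rose 3.08-fold on tagged ribosomes (log2 1.62, SE 0.25, adjusted p = 5.88e-05), and the rise in the whole homogenate was 3.54-fold (log2 1.82, SE 0.26, adjusted p = 9.86e-05). Animal 270 was the highest library of both fractions.

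Klf9 (chr19:23141226-23166911, plus strand), a Kruppel-like transcription factor known as a direct receptor target, was not called. It read 6327, 5657, 7128 and 7488 in the PBS positive fraction and 6269, 6446, 10570, 9922 and 6615 after LPS. Animals 270 and 271 alone stood above the PBS range. The log2 fold change was 0.26 (SE 0.15, adjusted p = 0.18), and -0.04 without those animals. In input the groups of 8227, 7295, 8570 and 8584 after PBS and 9664, 8884, 12240 and 9324 after LPS did not overlap, yet the change of 0.30 (SE 0.16, adjusted p = 0.239) was not called. Across all genes tested, 12.6% had every LPS input library above every PBS input library, and 17.1% did so in the positive fraction.

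Zbtb16 (chr9:48654297-48835945, minus strand) encodes the zinc finger repressor PLZF. It read 2670, 734.6, 1245 and 2571 in PBS input and 2669, 2090, 3112 and 2424 in LPS input. On tagged ribosomes it read 1640, 756.8, 855.1 and 1614 after PBS and 1783, 1398, 2157, 2730 and 1442 after LPS. The groups overlapped, because the 2 female PBS animals read within the LPS range and both males below it. The log2 fold change on tagged ribosomes was 0.65 (SE 0.33, adjusted p = 0.122), beside 0.51 in input (SE 0.34, adjusted p = 0.344).

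Hif3a (chr7:17030993-17062427, minus strand) encodes the hypoxia-inducible factor subunit HIF-3 alpha. It read 462, 123.8, 231.3 and 264.4 in the PBS positive fraction and 991.8, 635.2, 303.6, 324.4 and 604.7 after LPS. Animals 270 and 271, high for Cdkn1a, Klf9 and Tsc22d3, were the lowest LPS libraries here and lay within the PBS range. The rise was 2.11-fold (log2 1.08, SE 0.37, adjusted p = 0.0283). The call was lost in a fit to these 9 libraries by themselves (adjusted p = 0.0568), when animals 506 and 507 were left out (adjusted p = 0.116), without LPS animal 266 (log2 0.79, adjusted p = 0.0832) and without PBS animal 272 (0.83, adjusted p = 0.0958), 273 (adjusted p = 0.0723) or 506 (adjusted p = 0.0596). In input it read 765.1, 245.7, 555.5 and 628.2 after PBS and 888.5, 985.2, 854.1 and 853.7 after LPS, without overlap but not called (log2 0.70, SE 0.38, adjusted p = 0.237).

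**Figure D2:**
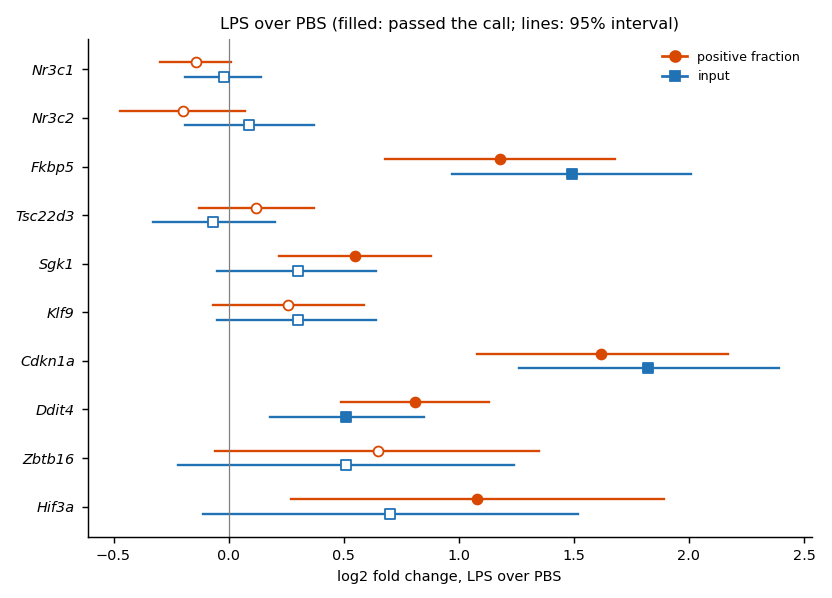
Log2 fold change, LPS over PBS, of each gene in the positive fraction (orange circles) and in input (blue squares), with 95% intervals computed from the value and SE of the edgeR fit. Filled symbols passed the call. The intervals of both fractions overlap for every gene, and those of Nr3c1 are the narrowest.

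Whether LPS acted differently in the 2 fractions was tested directly as the interaction of fraction and treatment. The difference is the LPS log2 fold change in the positive fraction minus that in input. None of the 10 genes was called, in edgeR (0 at an unadjusted p under 0.05) or in DESeq2. Of all genes, 5.46% were called with a difference above 0, which also covers smaller falls in the positive fraction, and 1.42% below 0. The difference was -0.31 for Fkbp5 (SE 0.33, interval -1.01 to 0.4) and -0.20 for Cdkn1a (SE 0.35, interval -0.96 to 0.56) on the log2 scale, intervals that leave room for effects differing by up to about 2-fold. For Ddit4 it was 0.30 (SE 0.21, interval -0.16 to 0.75, adjusted p = 0.494). With the animal as a block, Ddit4 was called at 0.37 (adjusted p = 0.0284) from the 8 animals with both libraries, the LPS rise being larger in the positive fraction. That fit called a difference above 0 for 9.02% of all genes. Within those animals the ratio of positive to input for Ddit4 was 1.66 ± 0.234 (range 1.43 to 1.89, n = 4) after PBS and 2.12 ± 0.0634 (range 2.04 to 2.19, n = 4) after LPS, without overlap. Cdkn1a and Nr3c2 also had ratios without overlap, but lower after LPS. For Cdkn1a they ran from 1.22 to 1.34 after PBS and from 0.936 to 1.18 after LPS. For Nr3c2 they ran from 0.74 to 0.941 and from 0.617 to 0.687. The block fit called neither: -0.31 for Cdkn1a (adjusted p = 0.0347, under the fold limit) and -0.34 for Nr3c2 (adjusted p = 0.0584). The share of all genes with ratios apart was not counted.

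Between fractions, Fkbp5, Ddit4 and Tsc22d3 were higher in the positive fraction than in input in both treatments, and Sgk1 was lower in both. In PBS animals 3 of the 10 genes were higher and 2 lower (21% and 18.8% of all genes), and in LPS animals again 3 and 2 (27.6% and 25.8%). Fkbp5 was 3.26-fold higher in PBS animals (log2 1.70, SE 0.24, adjusted p = 1.67e-05) and 2.63-fold higher in LPS animals (log2 1.40, SE 0.23, adjusted p = 5.11e-05). Ddit4 was 1.67-fold (log2 0.74, SE 0.15, adjusted p = 0.000795) and 2.05-fold higher (log2 1.03, SE 0.15, adjusted p = 1.09e-05). Tsc22d3 was 1.35-fold (log2 0.43, SE 0.12, adjusted p = 0.00824) and 1.53-fold higher (log2 0.62, SE 0.12, adjusted p = 0.000203). Its PBS value was 0.40 (adjusted p = 0.0547) without animals 506 and 507 and 0.30 (adjusted p = 0.053) in the fit to all 18 libraries. From the deposited log2 values it was 0.30 (adjusted p = 0.0213, under the 25% limit), and none of them was called. For these 3 genes, both fractions were apart without overlap in both treatments. Fractions were also apart for Sgk1 and the uncalled Nr3c1 in PBS animals, and for Nr3c2 in LPS animals. The share of all genes with fractions apart was not counted. Each positive library of Fkbp5, Ddit4 and Tsc22d3 also lay above the input of its own animal, with ratios of 2.09 to 3.71 for Fkbp5 and 1.21 to 1.70 for Tsc22d3 over the 8 animals.

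Sgk1 read 1.64-fold lower on tagged ribosomes of PBS animals (log2 -0.72, SE 0.16, adjusted p = 0.00136) and 1.38-fold lower in LPS animals (log2 -0.46, SE 0.15, adjusted p = 0.0127), the second call being lost without LPS input library 270 (-0.37, adjusted p = 0.0534) or without animals 506 and 507 (-0.44, adjusted p = 0.063). Nr3c2 was lower in LPS animals (log2 -0.57, SE 0.12, adjusted p = 0.000661), while the value in PBS animals, -0.28 (SE 0.13, adjusted p = 0.0851), was not called. Hif3a was lower in PBS animals (log2 -1.02, SE 0.39, adjusted p = 0.0387) but not called in LPS animals (-0.65, SE 0.36, adjusted p = 0.122). The PBS call for Hif3a was lost in 7 of 29 alternative fits, without animals 506 and 507 or without any 1 of the PBS input libraries 268, 273 and 506 and positive libraries 272, 273 and 506. In PBS animals all 8 oligodendrocyte markers read lower on tagged ribosomes and 7 of 8 endothelial markers higher, and the part of these shifts in the differences between fractions was not tested.

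Because both fractions came from the same animal, the comparison of fractions was also made with the animal as a block. Then 8 of the 10 genes were called in LPS animals, in a fit that called 27.7% of all genes higher and 27.7% lower, with Klf9 (log2 -0.45, adjusted p = 7.2e-05), Zbtb16 (-0.61, adjusted p = 8.79e-05) and Hif3a (-0.60, adjusted p = 0.0108) added as lower in the positive fraction. In PBS animals, where it called 22.6% higher and 22.4% lower, Zbtb16 (-0.48, adjusted p = 0.000977) was added as lower and Cdkn1a (0.36, adjusted p = 0.00031) as higher. Within LPS animals the ratio of positive to input for Zbtb16 was 0.656 ± 0.0424 (range 0.595 to 0.693, n = 4), although its level varied widely between animals. Nr3c1 was not called in either treatment, with the block (log2 0.12, adjusted p = 0.109 in PBS animals, and -0.05, adjusted p = 0.477 in LPS animals) or without it (0.12, SE 0.08, adjusted p = 0.208, and 0.00, SE 0.07, adjusted p = 0.986), with ratios of 0.87 to 1.14 over the 8 animals.

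**Figure D3:**
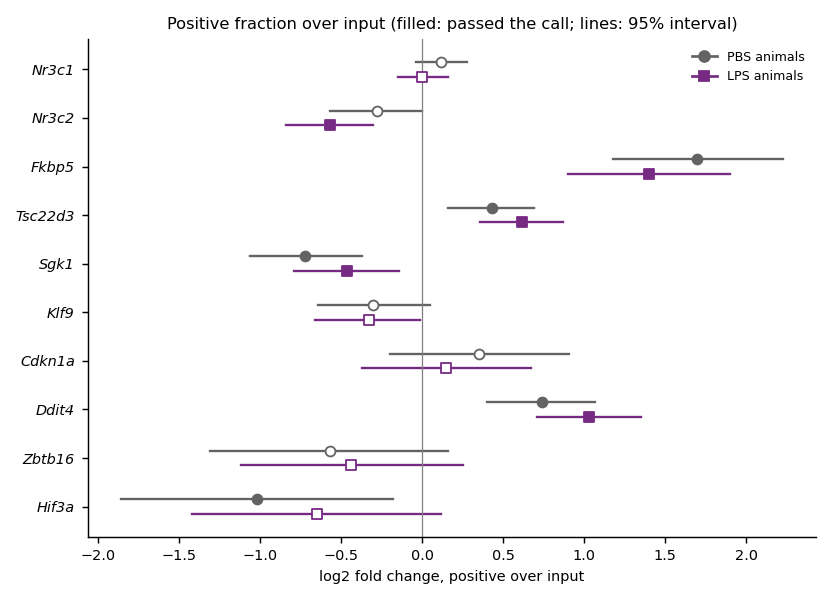
Log2 fold change, positive fraction over input, in PBS animals (grey circles) and LPS animals (purple squares), with 95% intervals from the fit without the animal block. Filled symbols passed the call. Fkbp5, Tsc22d3 and Ddit4 lie above 0 and Sgk1 below 0 in both treatments.

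Sex was uneven across treatments, with 2 of 4 PBS animals male but 1 of 5 LPS animals male. For Fkbp5, Zbtb16, Hif3a and Nr3c2 both PBS males read lower than both PBS females in both fractions. For Nr3c2 in the positive fraction the gap was narrow, 669.6 in male 272 against 682.1 in female 268. With 2 PBS animals of each sex, and fractions that share animals, this order is weak evidence of a sex difference. The share of all genes with this order was not counted. In a fit with 8 groups of fraction, treatment and sex, chosen after the values were seen, no gene of the 10 passed the call between female and male PBS animals. Zbtb16 was nearest in input (log2 1.40 female over male, SE 0.26, adjusted p = 0.0987), where 0.0676% of all genes were called, and Fkbp5 in the positive fraction (1.10, SE 0.19, adjusted p = 0.0975), where 0.0135% were called. At an unadjusted p under 0.05, 3 of the 10 genes passed in PBS input and 2 in the PBS positive fraction, beside 1580 and 1237 of all 14803 genes.

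After LPS the Fkbp5 value of the male, 16150, was the highest of the positive fraction, and that of the females ran from 13990 to 16070. The rise of Fkbp5 was called within each sex: on tagged ribosomes log2 0.72 for females (SE 0.17, adjusted p = 0.0061) and 1.91 for males (SE 0.22, adjusted p = 0.000111), in input 1.26 for females (SE 0.18, adjusted p = 0.000792) and 1.71 for males (SE 0.22, adjusted p = 0.00139). The male values rest on 1 LPS male, whose spread is taken from the other groups. The difference between the sexes in the LPS effect was -1.19 (SE 0.27, unadjusted p = 0.000715) in the positive fraction but did not survive adjustment over all genes (adjusted p = 0.907). Of all genes tested, edgeR called 0% for that difference in the positive fraction and 0% in input, with 588 and 213 genes at an unadjusted p under 0.05. For Hif3a the LPS effect on tagged ribosomes was 0.61 for females (SE 0.46, adjusted p = 0.347) and 1.85 for males (SE 0.61, adjusted p = 0.0662), neither of them called. Ddit4 (0.98, SE 0.18, adjusted p = 0.00159), Sgk1 (0.60, SE 0.17, adjusted p = 0.0178) and Cdkn1a (1.55, SE 0.37, adjusted p = 0.00716) were each called in the positive fraction when the female animals were compared with one another. For the males the values were 0.74 for Ddit4 (SE 0.24, adjusted p = 0.0644), 0.07 for Sgk1 (SE 0.23, adjusted p = 0.9) and 1.61 for Cdkn1a (SE 0.47, adjusted p = 0.0404), of which that of Cdkn1a was called. With sex as an added term, the same genes were called for the LPS effect in both fractions.

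**Figure D4:**
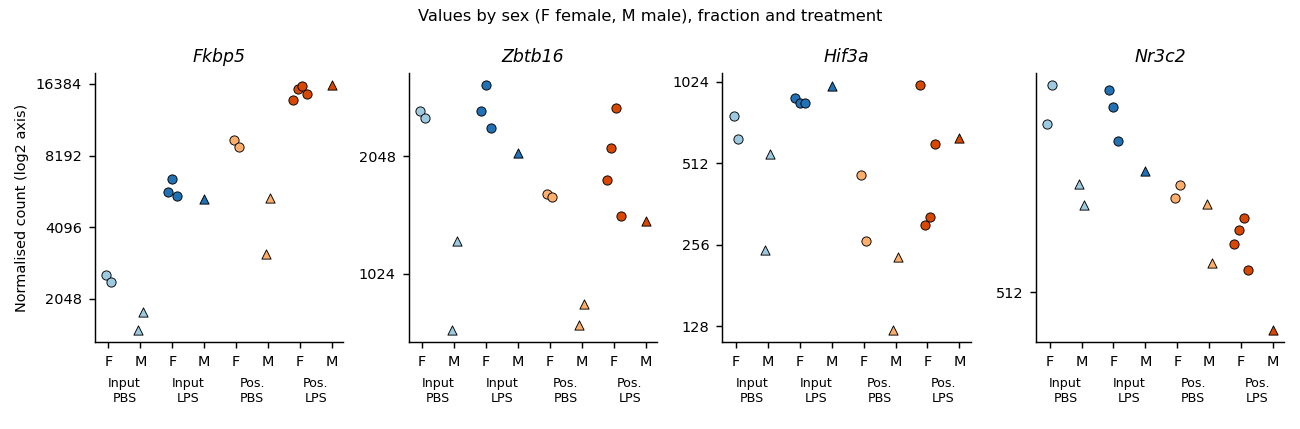
Normalised counts (log2 axes, which do not start at 0) of the 4 genes whose PBS males read below the PBS females in both fractions, by sex, fraction and treatment. Each point is 1 library, circles female and triangles male. For Fkbp5 the male and female values lie apart after PBS (3161 and 5448 against 8891 and 9492 in the positive fraction) and together after LPS.

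Among 36 other genes known to be induced by glucocorticoids, 18 rose in the positive fraction after LPS and 21 in input, and 0 fell in either, beside 19% and 7.16% of all genes raised and 14.9% and 5.26% lowered. The median log2 fold change was 0.38 in the positive fraction and 0.62 in input. Many genes of this list are also induced by inflammatory signals. The largest rises in both fractions were those of Lcn2, which encodes the iron-siderophore binding protein lipocalin-2, Il1r2, the decoy receptor for interleukin-1, and Angptl4, an inhibitor of lipoprotein lipase. On tagged ribosomes the values were log2 6.30 (SE 0.33, adjusted p = 2.02e-10) for Lcn2, 6.58 (SE 0.58, adjusted p = 9.34e-08) for Il1r2 and 2.28 (SE 0.27, adjusted p = 3.88e-06) for Angptl4. In input they were 5.48 (SE 0.32, adjusted p = 3.64e-09), 2.92 (SE 0.57, adjusted p = 0.00161, but 2.97 and adjusted p = 0.11 with the animal as a block) and 2.50 (SE 0.28, adjusted p = 7.03e-06).

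Neutrophils carry both Il1r2 and Lcn2. The summed neutrophil markers ran from 26.9 to 132 in the PBS and from 306 to 821 in the LPS positive fraction, and from 149 to 448 and from 454 to 1250 in input. All 4 tested markers were raised in each fraction, but Retnlg and Ngp passed the low-count filter only through LPS groups, which favours a rise. The untested Ltf and Camp had input means of 19.32 and 6.85 after PBS and 20.7 and 6.682 after LPS. In the positive fraction these were 3.103 and 1.153 after PBS and 3.082 and 10.28 after LPS. Of the 7 markers, 1 was at 0 in all libraries of every group. The part of neutrophils in the rises of Il1r2 and Lcn2 was not tested. The difference between fractions was called for 5 of the 36 genes. Among them were Il1r2 (3.66, SE 0.86, adjusted p = 0.0132) and Dusp1, a MAP kinase phosphatase (1.40, SE 0.41, adjusted p = 0.0452), with larger effects in the positive fraction. Txnip, the thioredoxin-interacting protein, had a difference below 0 (-1.51, SE 0.23, adjusted p = 0.000487). Its mean went from 951 after PBS to 2176 after LPS in input. In the positive fraction it went from 4728 to 3808, a log2 fold change of -0.31 that was not called. The called difference was above 0 for 4 of the 36 and below 0 for 1, beside 5.46% and 1.42% of all genes. Without animals 506 and 507, 0 of the 36 were called with a difference above 0 and 1 with a difference below 0. Il1r2 (adjusted p = 0.0581) and Dusp1 (adjusted p = 0.135) were then no longer called. With the animal as a block the counts were 5 and 5. Over all genes, the fit without animals 506 and 507 called 264 above 0 and 59 below 0, and the block fit called 9.02% and 3.91%. The Dusp1 call was lost in 11 of 28 alternatives and that of Il1r2 in 2. Without animals 270 and 271, the median log2 fold change of the 36 in the positive fraction was 0.29, beside 0.02 over all genes. The shares of all genes called in that fit are not given here, so its counts are not read against them. It called 17 of the 36 raised and 3 lowered, those that fell being Glul, Txnip and Tle3 (log2 -0.37, -0.55 and -0.38). Glul and Tle3 are named because they are members of a count of 3, chosen after their values were seen.

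Between fractions, 12 of the 36 genes stood higher on tagged ribosomes and 6 stood lower in PBS animals, and 13 and 8 did in LPS animals. Of all genes, 21% were higher and 18.8% lower in PBS and 27.6% and 25.8% in LPS animals. The largest differences in PBS animals were those of Cd163, the haemoglobin scavenger receptor of border macrophages (log2 3.14, SE 0.27, adjusted p = 2.62e-08), Txnip (2.31, SE 0.17, adjusted p = 2.95e-09) and Tgm2, a transglutaminase (2.22, SE 0.21, adjusted p = 1.03e-07). In LPS animals they were those of Il1r2 (3.59, SE 0.45, adjusted p = 2.07e-06), Cd163 (2.84, SE 0.26, adjusted p = 3.35e-08) and Cebpb, a transcription factor of myeloid cells (2.77, SE 0.18, adjusted p = 2.62e-10).

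Of a list of 18 chaperone and co-chaperone genes, none rose after LPS. Whether the product of each gene acts on the receptor was not tested. Beside 14.9% of all genes in the positive fraction, 3 of the 18 fell there: Ppid, the cyclophilin of the receptor complex (log2 -0.38, SE 0.07, adjusted p = 0.000542), and the inducible Hsp70 genes Hspa1a (-0.38, SE 0.13, adjusted p = 0.0216) and Hspa1b (-0.36, SE 0.12, adjusted p = 0.0256), a near-identical pair whose reads may be split between them. Without animals 270 and 271, 1 of the 18 fell there, Hspa1a (adjusted p = 0.0947) and Hspa1b (adjusted p = 0.0546) no longer being called, and over the 29 alternatives the pair lost the call in 5 and 10. In input 2 fell, beside 5.26% of all genes, Hspa4 (-0.40, SE 0.07, adjusted p = 0.000571) and Fkbp4 (-0.35, SE 0.08, adjusted p = 0.00632, a call lost in 4 of 29 alternatives). Fkbp4 encodes FKBP52, the co-chaperone that competes with FKBP51 for Hsp90. Between fractions, 10 of the 18 were called higher in the positive fraction, 0 lower and 8 neither in PBS animals, and 12, 0 and 6 in LPS animals (21% and 27.6% of all genes were higher). The largest values were those of Cdc37 in PBS animals (0.65, SE 0.11, adjusted p = 8.2e-05) and of Hsp90b1 in LPS animals (1.00, SE 0.12, adjusted p = 1.94e-06). In the fit to all 18 libraries, the nearly empty one included, 4 of 18 were called higher in PBS animals. The median of all genes there was -0.12.

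Of 20 receptor coregulators, 2 rose and 1 fell in the positive fraction after LPS, and 1 rose and 1 fell in input (of all genes, 19% and 14.9% did on tagged ribosomes, 7.16% and 5.26% in whole tissue). Those that rose in the positive fraction were the arginine methyltransferase Prmt1 (log2 0.49, SE 0.10, adjusted p = 0.00115) and the acetyltransferase Kat2b (0.44, SE 0.13, adjusted p = 0.0105), and the chromatin remodelling ATPase Smarca2 fell (-0.36, SE 0.07, adjusted p = 4e-04). In input Kat2b rose (0.43, SE 0.13, adjusted p = 0.0401) and Smarca4 fell (-0.36, SE 0.11, adjusted p = 0.0438), calls lost in 10 and 17 of 29 alternatives. The Smarca2 call was lost in 4. Between fractions 2 of the 20 were higher and 4 lower in the positive fraction, in PBS and in LPS animals alike in number, with Crebbp lower in both (-0.63, SE 0.14, adjusted p = 0.00158 and -0.66, SE 0.13, adjusted p = 0.000352).

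Of 9 genes for corticosteroid access and metabolism, 8 were tested, of which 3 rose and 2 fell in the positive fraction after LPS and 3 rose and 1 fell in input. Of all genes, 19% rose and 14.9% fell in the positive fraction, and 7.16% and 5.26% did in input. H6pd, which supplies NADPH to the corticosterone-regenerating enzyme Hsd11b1 in the endoplasmic reticulum, rose by 1.23 in the positive fraction (log2, SE 0.13, adjusted p = 6.23e-07) and by 0.75 in input (SE 0.13, adjusted p = 0.000709). The drug-efflux genes Abcb1a and Abcb1b encode the P-glycoproteins that limit steroid entry into the brain. In the positive fraction Abcb1a fell by 1.38 (SE 0.30, adjusted p = 0.00144) and Abcb1b rose by 0.53 (SE 0.20, adjusted p = 0.0441). The Abcb1b call was lost in 13 of 29 alternatives, among them the animal as a block (0.51, adjusted p = 0.103), sex as a term (0.49, adjusted p = 0.0744) and leaving out animals 506 and 507 (0.40, adjusted p = 0.231). In input Abcb1b rose by 1.20 (SE 0.22, adjusted p = 0.000846). These are close paralogs, and Abcb1a is a gene of brain endothelium. The summed endothelial markers ran from 7280 to 11000 in the PBS and from 5950 to 9920 in the LPS positive fraction, with 3 of 8 markers called lower and 1 higher, and their part in the fall of Abcb1a was not tested. Akr1c14, a low-count gene of the access and metabolism list, had means of 51.81 in the PBS and 3.235 in the LPS positive fraction. In input its means were 37.87 after PBS and 6.247 after LPS.

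**Figure D5:**
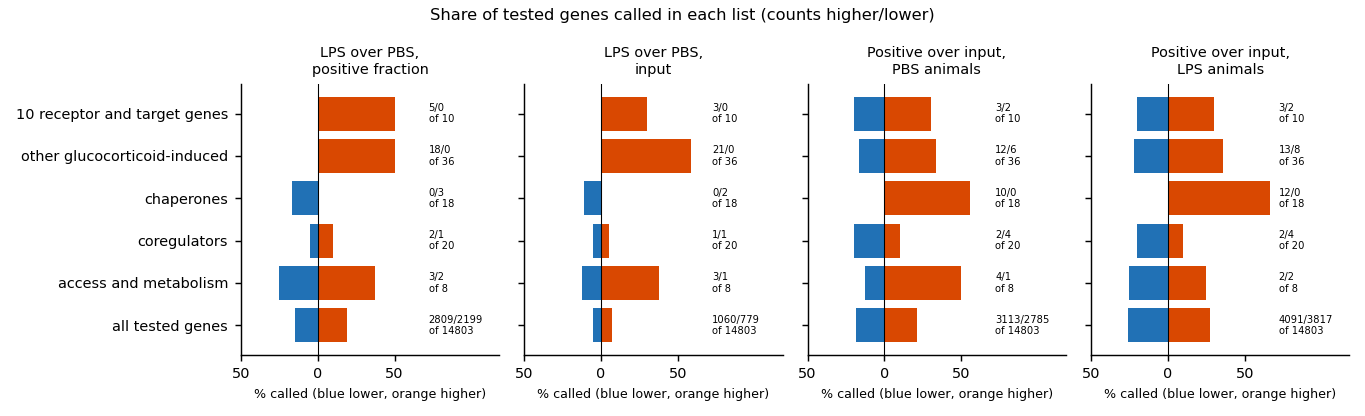
Share of the tested genes of each list called higher (orange, right) or lower (blue, left) in 4 comparisons, in percent, with the counts higher/lower beside each bar. The 36 other glucocorticoid-induced genes show 18 and 21 rises and no falls after LPS, and the chaperones 10 and 12 genes higher in the positive fraction. The lists were chosen with earlier results of these data known.

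The genes whose values over the 17 libraries lay closest to those of Nr3c1, Fkbp5 and Tsc22d3 were named by the root mean square (RMS) difference of log2 normalised counts, each gene centred on its own mean, among 12599 genes with a mean of at least 100. Closest to Nr3c1 were Ppp1r7 (0.068), Ube2e3 (0.078) and Hp1bp3 (0.08), where the median gene lay at 0.313. Closest to Tsc22d3 were Ubb (0.091), Mrpl46 (0.098) and Drg2 (0.1), with a median gene at 0.425. Fkbp5 had no gene so near: Slc2a9, a urate transporter, lay at 0.36, Cebpd, a CCAAT-enhancer binding protein, at 0.384, and Erap1, an aminopeptidase that trims antigenic peptides, at 0.403, with a median gene at 1.143. These 3 genes had log2 fold changes after LPS between 1.04 and 1.32 in the positive fraction and between 0.99 and 1.80 in input. The libraries share animals and fractions, so the distances are a description.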

How the data were processed

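TRAP-RNA sequencing libraries of input and positive fraction were made by the authors with a directional kit from half-brains of 9 mice. Reads were trimmed, aligned to mm10 and quantified over RefSeq genes in Strand NGS by the authors, who deposited estimated counts per gene (81.6% of values above 0 are not whole numbers at a tolerance of 1e-06) and log2 values normalised with DESeq and set to a baseline median. The nearly empty input library of animal 271 was left out. Counts were rounded and scaled by median-of-ratios size factors, and genes above 20 normalised counts in every library of at least 1 group were kept (14803 of 36172). The main test was edgeR 4.0.16 (quasi-likelihood, R 4.3.3), 1 mean per group, 13 residual degrees of freedom, Benjamini-Hochberg adjusted over all genes. Calls needed an adjusted p under 0.05 and a higher group more than 25% above the lower. The test was checked on simulated counts. The study's analysis of variance was replaced by this count model.

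Same-numbered libraries are fractions of 1 animal by the labels, and their deviations from group means correlated at 0.162 to 0.519 over 8 animals. Alternatives were DESeq2 1.42.0, TMM scaling, other filters, limma 3.58.1 on log2(normalised count + 1), sex as a term, the animal as a block, subsets of libraries and the deposited log2 values. Named genes were all 10 members, the 3 called genes of largest log2 fold change per list and comparison (mean of at least 100 normalised counts), and the 3 genes closest to Nr3c1, Fkbp5 and Tsc22d3. Akr1c14, Glul and Tle3 were named outside these rules. The members and lists were chosen with earlier results of these data known. Promoter windows were RefSeq's, for GRCm38.p6. The libraries used held 22968939 to 35123345 counts each.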

Additional observations from a re-analysis of the deposited data

Results flagged for a closer look

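Of the 40 sets of values formed by the 10 genes in the 4 groups, 2 held a library that stood apart by Dixon's test, about the rate of 1 in 20 that chance gives. Both concern Cdkn1a. In LPS input, animal 270 read 8586 normalised counts where the other 3 read 4088 to 4687, a gap of 0.867 of the group's range. In the PBS positive fraction, animal 272 read 1481 where the other 3 read 2060 to 2152, a gap of 0.862 of the range. Cdkn1a was called raised in both fractions under each of the 29 alternatives, those without these libraries included, with log2 fold changes of 1.51 to 1.94 in input and 1.24 to 1.76 in the positive fraction.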

How the results depend on the processing

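Fkbp5 and Cdkn1a in both fractions and Ddit4 in the positive fraction were called raised by LPS under all 29 alternatives, 2 of which (the deposited log2 values, and leaving out animals 270 and 271) were chosen after seeing the data. Of the 1440 values of single genes under an alternative, 1374 kept direction and call, 26 lost the call, 21 gained it and 19 reversed. No reversed value was called. The number of genes called of the 10 changed by over 1.5 times in 3 cases, whose cause was not tested: 3 called between fractions in PBS animals when 506 and 507, the animals numbered in the 500s, were left out, and, under the replicate block, 8 called between fractions in LPS animals and 1 called for the difference of the LPS effect. The replicate block (correlation 0.445 in limma for the LPS effects) changed the number called of the 10 by less in the other comparisons. Of the 36 induced genes it raised those called with a difference between fractions below 0 from 1 to 5. Among the values that reversed, the difference between fractions for Klf9 (-0.04) was 0.03 without the 500s animals and ran from -0.15 to 0.07 as single libraries were left out, and that of Zbtb16 (0.13) was -0.13 under the replicate block, -0.06 without animals 270 and 271, and -0.12 to 0.39 as single libraries were left out. That of Cdkn1a ran from -0.36 to 0.11, and Cdkn1a between fractions in LPS animals from -0.01 to 0.46. Nr3c1 between fractions in PBS animals was -0.01 in the fit to all 18 libraries and also in the deposited log2 values. The median of all genes there was -0.12 and -0.13. The share of calls that were higher in the positive fraction was 37.6% and 37%, against 52.8% in the main fit. Without animals 270 and 271 the LPS effect in the positive fraction was -0.07 for Tsc22d3 and -0.04 for Klf9. The animals numbered in the 500s mattered for the count over all genes in input, where 673 rose and 410 fell without them against 1060 and 779 with them. The difference between fractions was called for 808 and 210 genes, 1336 and 580 with the replicate block, 264 and 59 without the 500s animals, and without animals 270 and 271 it was called for 334 in the second direction. For it, no separate fit to the compared libraries exists.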
